A study of Mus musculus with 10 samples.

Results

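The genes of cholesterol and fatty acid synthesis, with the SREBP system that controls them, were examined in bone marrow-derived macrophages (BMDMs) lacking Rac2. They are 36 genes chosen by name, in 3 groups. The regulators are Srebf1, Srebf2, Scap, Insig1, Insig2, Mbtps1, Mbtps2 and Sec24d. The sterol branch runs in 18 genes from Acat2 to Dhcr7, and the fatty acid branch holds 10 genes from Acss2 to the elongases and desaturases. A gene was read from a feature of the array that the platform annotation gives to that gene alone, and from the feature with the highest mean over all arrays where there were several. This gave 34 of the 36 genes, out of 19935 genes with such a feature, and all 34 passed the filter on low values. Acat2 and Mbtps2 were not analysed here, because Mbtps2 shares its feature with Yy2 and no feature was listed for Acat2 alone.

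The study holds 5 samples labelled Rac2-/- and 5 labelled WT, numbered 1 to 5 in each group, each with RNA on its own Affymetrix mouse whole-transcript array. The Rac2-/- cells carry a mutation of Rac2, a GTPase of blood cells, and all mice were male and of strain C57BL. Both groups had the same culture: MCSF at 50 ng/ml for 7 days, 20% fetal bovine serum and 16% oxygen, with no further treatment and 8 days in all. The labels call the cells over 80% Mac1-positive and the RNA of integrity number 8 to 9, while the methods of the study differ from this in the day of harvest and in both limits. The series text speaks of 5 mice per genotype but ties no array to a mouse, so the p-values here reflect only the spread among these arrays, some of which may be technical. Lipoproteins in the serum supply cholesterol to both groups.

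Cells sense cholesterol in the membrane of the endoplasmic reticulum. When it is low, Scap escorts the SREBP precursors in COPII vesicles to the Golgi, where proteases release the active factors, and when it is high, Insig proteins hold Scap back. SREBP2, from Srebf2, acts mainly on sterol synthesis and uptake, and SREBP1, from Srebf1, mainly on fatty acid synthesis, while LXR raises Srebf1 and cholesterol export when sterols accumulate, a balance macrophages need because they take up lipid-rich debris.

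Arrays 1 and 2 stood apart from arrays 3 to 5 in both groups. No label names a batch, and these sets of arrays, taken from the split in the values, are called batches here. Arrays of a batch correlated at 0.974 to 0.996, arrays of different batches at 0.934 to 0.955, and 12675 features differed by batch. The same values set the batches, so the correlations and this count describe the split and do not test it. Rac2-/- array 5 was high in S phase and mitosis genes. All 7 macrophage markers were above 10 in every array, with Lyz2 at 12.96 to 13.29 in Rac2-/- and 12.87 to 13.27 in WT BMDMs. None was called without the block, but the groups did not overlap in Fcgr1 and Cd68 (lower in Rac2-/- by their means, at log2 differences of -0.74 and -0.22) or in Itgam (a difference of 0.33), and Fcgr1 and Itgam passed with the block (adjusted p = 0.0449 and 0.0380 in limma). All Rac2-/- arrays lay above all WT arrays in 2.76% of all genes, and the share in the other direction is not given here. The block fit called 6.35% of all features in either direction. Rac2 itself lay at 6.90, 6.80, 7.04, 7.54 and 7.20 in Rac2-/- arrays 1 to 5, against 11.81, 11.82, 12.26, 12.19 and 12.42 in WT arrays 1 to 5. The difference was -5.00 with an SE of 0.17 (adjusted p = 7.73e-07 in limma), and no source used here says where its probes lie relative to the mutated part.

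All values below are log2 values, and all differences are Rac2-/- minus WT on that scale, so 1 unit is a doubling. The test was limma over all features kept by the filter, with Benjamini-Hochberg adjustment over all of them and a threshold of 0.05. It called 514 features (1.9%), with 215 higher (0.795%) and 299 lower (1.11%) in Rac2-/- BMDMs. Deviations of same-numbered arrays ran together (correlations of 0.493 to 0.716). Those of unlike number within a batch did so to the same degree (0.476 to 0.724), so this does not separate pairing by number from the batches. Values with the replicate number as a block are given where the block changes a call. That fit called 1716 features, 6.35% of those tested.

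Synthesis genes mostly lay higher in Rac2-/- BMDMs by their means, but few differences passed the test. The mean was higher for 28 of 34 genes, against 50.3% of all 16882 genes tested, and the median difference was 0.22, against 0.00 over all genes. Only Sec24d and Mvd were called, both higher in Rac2-/- BMDMs. Of all genes, 1.05% were called in that direction, 1.33% in the other and 2.38% in either. With the replicate block, Mbtps1, Acaca, Fasn and Fads1 joined them, which made 6 genes, all higher in Rac2-/- BMDMs, where 4.04% of all genes were called higher. The same 6 genes were called with a term for the batches, a fit that called 6.09% of all genes higher. In Sec24d, Mbtps1 and Mvd all Rac2-/- arrays lay above all WT arrays, as they did in 2.76% of all genes. The arrays cannot tell fewer cells of a type from less RNA per cell.

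**Figure D1:**
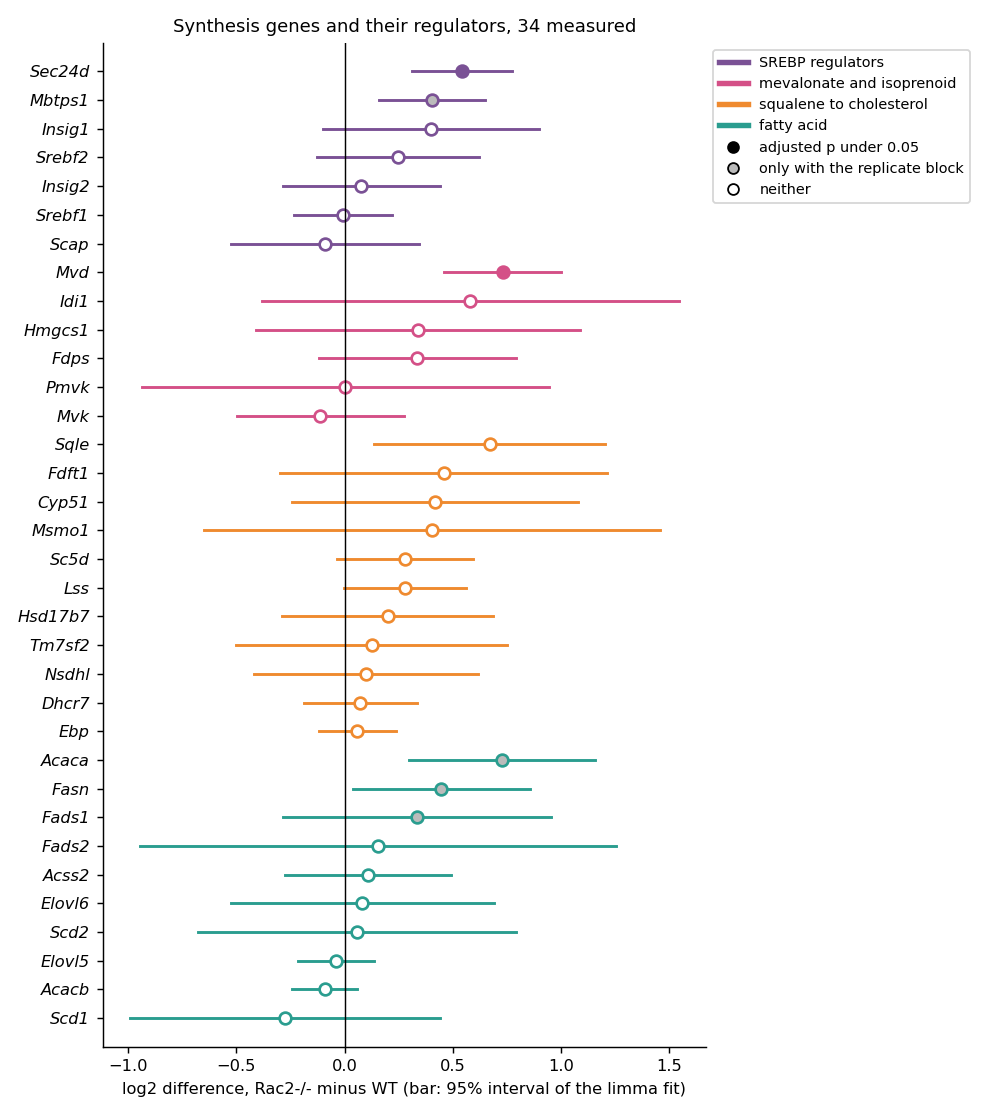
Log2 difference (Rac2-/- minus WT, horizontal axis) of the 34 measured genes with its 95% interval from limma, grouped by branch and ordered by size. Filled points passed an adjusted p of 0.05, grey points passed only with the replicate block, and open points passed neither, so Sec24d and Mvd alone are filled and the 6 points left of 0 are all open.

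Among the regulators, only Sec24d was called, Mbtps1 passed with the block, and the SREBP genes themselves did not pass. Sec24d encodes a cargo-binding subunit of the COPII coat, the carrier of Scap and the SREBPs. It was at 9.35, 9.09, 9.02, 8.88 and 8.97 in Rac2-/- arrays 1 to 5, against 8.58, 8.70, 8.46, 8.36 and 8.50 in WT arrays 1 to 5. The lowest Rac2-/- array was above the highest WT array. Sec24d thus averaged 9.06 ± 0.18 in Rac2-/- and 8.52 ± 0.13 in WT BMDMs (SD, n = 5 each), a difference of 0.54 (SE 0.10) or 1.46-fold, with an adjusted p of 0.0273 in limma and 0.0112 with the replicate block. The difference was 0.58 in arrays 1 and 2 and 0.52 in arrays 3 to 5. The call was lost when Rac2-/- array 2 or 3 or WT array 1, 3, 4 or 5 was left out, with adjusted p of 0.0695, 0.0675, 0.0530, 0.0854, 0.0813 and 0.0780 in that order, and the difference then lay between 0.50 and 0.56.

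Mbtps1 encodes the protease that makes the first cut in the SREBPs in the Golgi. Its values were 9.69, 9.60, 9.31, 9.39 and 9.45 in Rac2-/- arrays 1 to 5, against 9.28, 9.27, 8.91, 9.00 and 8.95 in WT arrays 1 to 5. The groups did not overlap, and in both of them arrays 1 and 2 were the highest. The difference of 0.40 (SE 0.11, 1.32-fold) missed the threshold (adjusted p = 0.124 in limma) and passed it with the replicate block (adjusted p = 0.0126). It was 0.37 within arrays 1 and 2 and 0.43 within arrays 3 to 5.

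Insig1, which retains Scap in the endoplasmic reticulum and is itself an SREBP target, differed by 0.40 (95% interval -0.10 to 0.90, adjusted p = 0.677 in limma). It lay at 10.54, 9.88, 9.61, 9.48 and 10.23 in Rac2-/- arrays 1 to 5, against 9.52, 9.89, 9.21, 9.25 and 9.88 in WT arrays 1 to 5. Rac2-/- arrays 1 and 5 were the highest of all, and the other 3 Rac2-/- arrays lay within the range of the WT arrays. Srebf2 averaged 9.60 ± 0.23 in Rac2-/- and 9.35 ± 0.33 in WT BMDMs, a difference of 0.25 (95% interval -0.13 to 0.62). It was higher in Rac2-/- in all 5 same-numbered pairs. Srebf2 lies on chromosome 15, as Rac2 and the sterol gene Sqle do, and whether this bears on the differences was not tested. Srebf1 was at 8.47 ± 0.13 in Rac2-/- and 8.47 ± 0.16 in WT BMDMs, with an interval of -0.23 to 0.22 for the difference. Scap differed by -0.09 (-0.52 to 0.35) and Insig2, the second Insig, by 0.08 (-0.29 to 0.44). None of Srebf2, Srebf1, Scap and Insig2 passed the test, with or without the block.

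**Figure D2:**
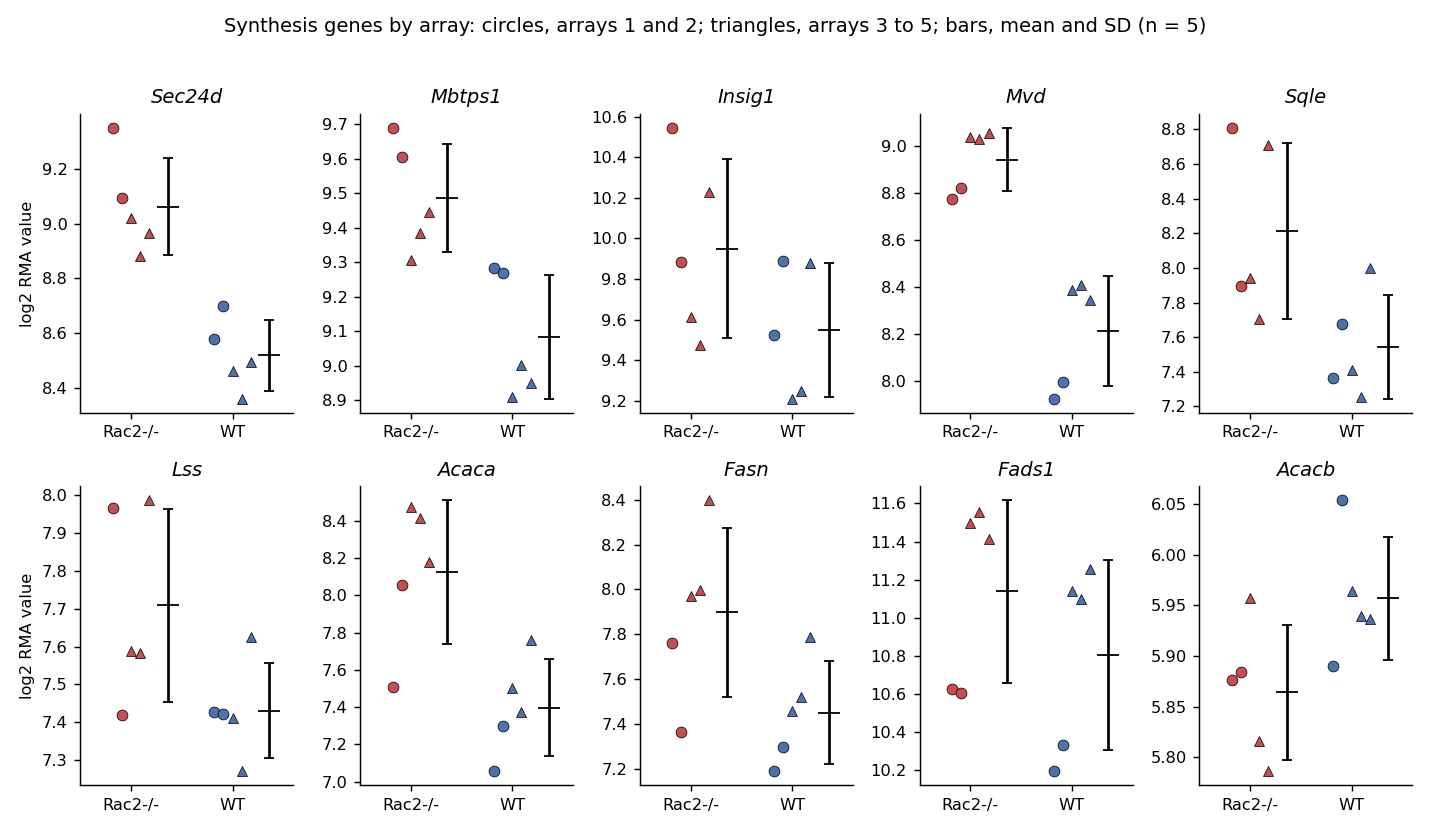
Log2 RMA values (vertical axes, each on its own range) of 10 synthesis genes (Hmgcs1 is not drawn), with Rac2-/- points left of WT points and the mean and SD (n = 5) as bars. Circles are arrays 1 and 2 and triangles arrays 3 to 5, and the groups are apart in Sec24d, Mbtps1 and Mvd, while Fads1 splits by batch within each group.

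The sterol branch had the most uniform direction, with higher means in Rac2-/- BMDMs for 16 of its 17 measured genes and a median difference of 0.28, but a single gene of it was called. Mvd encodes the decarboxylase that turns mevalonate diphosphate into isopentenyl diphosphate. It was at 8.77, 8.82, 9.04, 9.03 and 9.05 in Rac2-/- arrays 1 to 5, against 7.92, 8.00, 8.39, 8.41 and 8.34 in WT arrays 1 to 5. No WT array reached the lowest Rac2-/- array, and in both groups arrays 1 and 2 were the lowest. Mvd averaged 8.94 ± 0.13 in Rac2-/- and 8.21 ± 0.23 in WT BMDMs, a difference of 0.73 (SE 0.12) or 1.66-fold (adjusted p = 0.0141 in limma, 0.0036 with the replicate block). It passed without any of the 10 arrays in turn, at an adjusted p of 0.0477 or less, and the difference was 0.84 within arrays 1 and 2 and 0.66 within arrays 3 to 5.

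The neighbours of Mvd in the mevalonate pathway showed no such separation. Hmgcs1, which makes HMG-CoA, had values of 10.36, 9.51, 8.74, 8.58 and 9.19 in Rac2-/- arrays 1 to 5, against 9.27, 9.52, 8.53, 8.53 and 8.83 in WT arrays 1 to 5, and differed by 0.34 (95% interval -0.41 to 1.09). Rac2-/- array 1 stood above every other array, and the groups overlapped. Fdps, the farnesyl diphosphate synthase, differed by 0.34 (-0.12 to 0.79), and Idi1, the isomerase after Mvd, by 0.58 (-0.38 to 1.54). A second Idi1 feature gave 0.34. The kinases between Hmgcs1 and Mvd went with neither direction. Mvk was at 8.06 ± 0.34 in Rac2-/- and 8.17 ± 0.24 in WT BMDMs, and Pmvk at 7.29 ± 0.75 in both.

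From squalene onward all 11 measured genes had higher means in Rac2-/- BMDMs, with differences of 0.06 to 0.67 and a median of 0.28, and none was called, with or without the block. At an unadjusted p of 0.05, 1 of them passed in limma and 4 with the block, where 10.4% and 21.5% of all features did. Sqle, the epoxidase that starts ring formation and a known control point, showed the largest difference. Its values were 8.81, 7.90, 7.94, 7.70 and 8.71 in Rac2-/- arrays 1 to 5, against 7.36, 7.68, 7.41, 7.26 and 8.00 in WT arrays 1 to 5. WT array 5 lay above Rac2-/- arrays 2, 3 and 4, so the groups overlapped. The difference in Sqle was 0.67 (95% interval 0.14 to 1.21), with an adjusted p of 0.287 in limma and 0.0699 with the replicate block.

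Lss, the cyclase that makes lanosterol, was at 7.97, 7.42, 7.59, 7.58 and 7.99 in Rac2-/- arrays 1 to 5, against 7.43, 7.42, 7.41, 7.27 and 7.62 in WT arrays 1 to 5. Rac2-/- arrays 1 and 5 were again the highest, and the difference was 0.28 (-0.00 to 0.56, adjusted p = 0.49 in limma). Fdft1, the squalene synthase, differed by 0.46 (-0.30 to 1.21) and its second feature by 0.39. The lanosterol demethylases Cyp51 and Msmo1 differed by 0.42 and 0.40, and the late enzyme Sc5d by 0.28. Without Rac2-/- array 1 the difference was 0.17 in Cyp51, 0.098 in Msmo1 and 0.18 in Sc5d, and in the mevalonate pathway it was 0.27 in Idi1, 0.17 in Fdps and 0.070 in Hmgcs1. That fit had no batch term, and without the array the batches were unequal between the groups. Within arrays 1 and 2 these genes differed, in the same order, by 0.62, 0.42, 0.34, 0.85, 0.43 and 0.53. Within arrays 3 to 5 the differences were 0.28, 0.39, 0.24, 0.40, 0.28 and 0.21. The values within arrays 1 and 2 include Rac2-/- array 1. Of these genes, only Fdps was higher in Rac2-/- array 2 (8.31) than in WT array 2 (8.22). In those arrays Cyp51 was at 7.65 in Rac2-/- and 7.92 in WT, Msmo1 at 10.69 and 10.84, and Hmgcs1 at 9.51 and 9.52. Over all arrays, smaller differences were seen in Hsd17b7 at 0.20, the reductase Tm7sf2 at 0.12, Nsdhl at 0.10, the last reductase Dhcr7 at 0.07 and the isomerase Ebp at 0.06, whose interval was -0.12 to 0.24.

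The mean level of the sterol genes varied from array to array within a genotype. As the mean over the 17 genes, each taken relative to its own mean over 10 arrays, the sterol level was 0.58, 0.10, -0.06, -0.14 and 0.25 in Rac2-/- arrays 1 to 5, against -0.17, 0.04, -0.33, -0.32 and 0.05 in WT arrays 1 to 5. Rac2-/- arrays 1, 2 and 5 exceeded all WT arrays, and Rac2-/- arrays 3 and 4 were lower than WT arrays 2 and 5. Without Rac2-/- array 1 the sterol median was 0.14, and without arrays 1 and 5 of Rac2-/-, left out together after their levels were seen, it was 0.034. Mvd kept a difference of 0.75 without both (adjusted p = 0.0428 in limma), while Sec24d was at 0.48 (adjusted p = 0.0638) and Sqle at 0.31 (adjusted p = 0.695). These fits had no batch term, and the batches were then unequal between the groups.

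Neutrophil marker genes varied across the same arrays. All 7 markers listed were measured, none near the lowest values of the arrays, with Ngp at 7.73 to 11.17 in Rac2-/- and 8.51 to 11.73 in WT BMDMs. Their mean relative level was -1.56, 0.24, 0.40, 0.29 and -0.09 in Rac2-/- arrays 1 to 5, against 0.98, -1.11, 1.05, 1.06 and -1.27 in WT arrays 1 to 5. The lowest array of Rac2-/- in these markers, array 1, was its highest in the sterol genes, and WT arrays 2 and 5 were low in the markers and highest among WT arrays in the sterol genes. With the marker level as a covariate, the sterol median was 0.24 and Sec24d and Mvd were still the genes called. The 19 S phase and mitosis genes stood at 1.99 in Rac2-/- array 5, and between -0.62 and 0.02 in the other arrays. With them as a covariate, which mostly sets Rac2-/- array 5 apart from the others, the sterol median was 0.32, with the same 2 genes called. Some marker lists of other cell types also differed. The relative level was -0.47 to -0.24 in Rac2-/- and -0.17 to 0.60 in WT arrays for 6 mast cell and basophil markers, -0.43 to 0.03 in Rac2-/- and -0.04 to 0.33 in WT arrays for 6 fibroblast markers, and -0.31 to -0.07 in Rac2-/- and 0.12 to 0.34 in WT arrays for 6 adipocyte markers, among them Fabp4 and Pparg, which macrophages also express. For 3 lymphocyte and 3 endothelial markers the mean level differed by 0.07 and 0.06. Adipoq and Lep, which define adipocytes, did not pass the filter, and neither did Ms4a2, Fcer1a and Lum. Their part in the results was not tested.

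**Figure D3:**
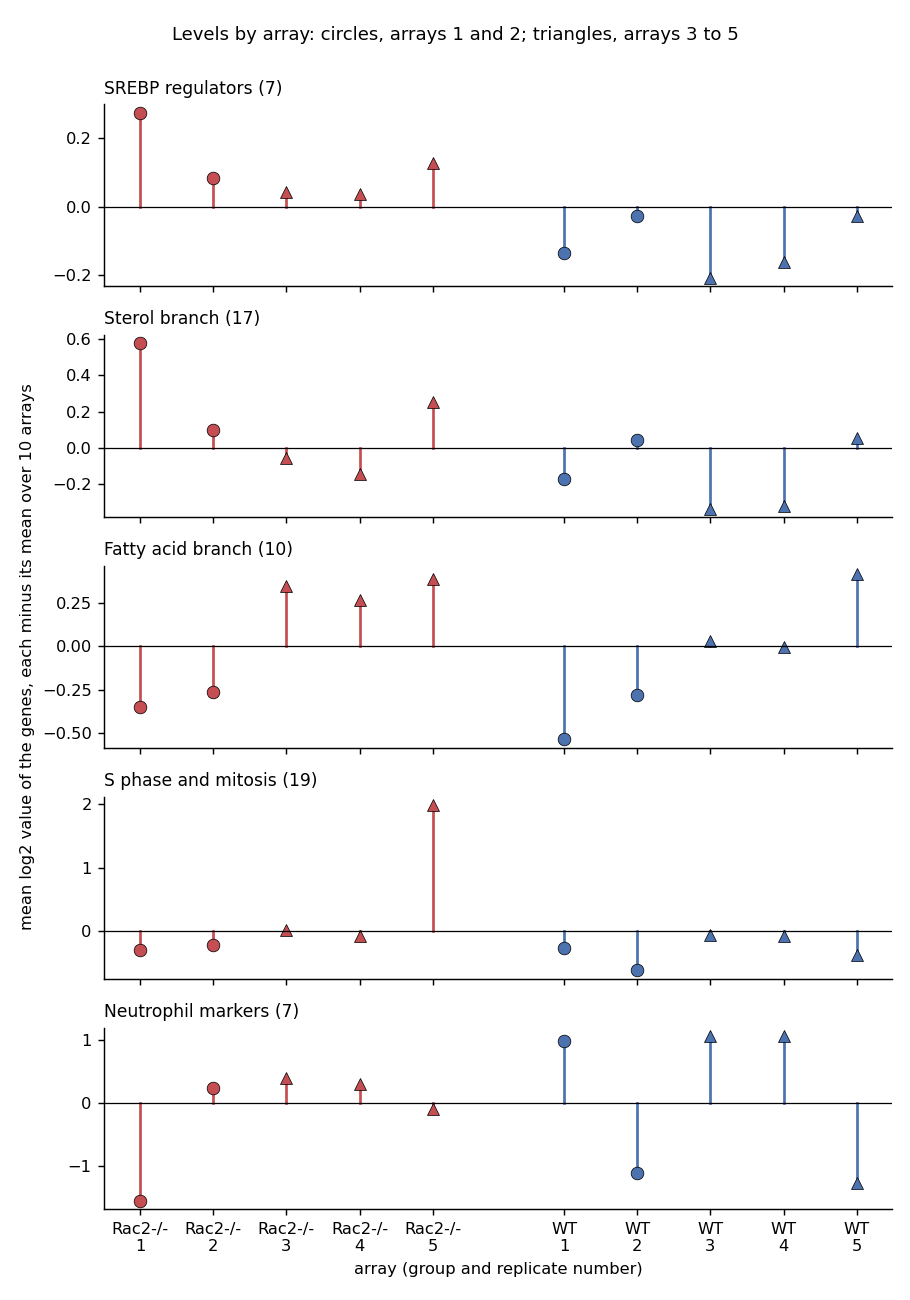
Mean log2 value of each gene group relative to its genes' own means over 10 arrays (vertical axes, each on its own range), for Rac2-/- arrays 1 to 5 on the left and WT arrays 1 to 5 on the right. The sterol branch peaks at 0.58 in Rac2-/- array 1, where neutrophil markers are at -1.56, and the fatty acid branch is below 0 in arrays 1 and 2 of both groups.

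In the fatty acid branch no gene was called without the block, although 2 of 10 passed an unadjusted p of 0.05 in limma, as 10.4% of all features did, and Acaca, Fasn and Fads1 passed with the block. Acaca, the acetyl-CoA carboxylase that makes malonyl-CoA for synthesis, was at 7.51, 8.05, 8.47, 8.41 and 8.18 in Rac2-/- arrays 1 to 5, against 7.06, 7.30, 7.50, 7.37 and 7.76 in WT arrays 1 to 5. Only Rac2-/- array 1 lay within the WT range. The averages were 8.13 ± 0.39 in Rac2-/- and 7.40 ± 0.26 in WT BMDMs, a difference of 0.73 (SE 0.19) or 1.66-fold, with an adjusted p of 0.11 in limma and 0.017 with the replicate block. A second Acaca feature gave 0.68 (adjusted p = 0.0812 in limma, 0.0281 with the block). Without Rac2-/- array 1 the difference in Acaca was 0.88 (adjusted p = 0.0182 in limma), again with no batch term and with batches unequal between the groups.

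Fasn encodes the synthase that builds palmitate from malonyl-CoA. Its values were 7.76, 7.37, 7.97, 8.00 and 8.40 in Rac2-/- arrays 1 to 5, against 7.19, 7.30, 7.46, 7.52 and 7.79 in WT arrays 1 to 5. Each Rac2-/- array was above the WT array of its number, although the ranges overlapped. The difference was 0.45 (SE 0.18, 1.36-fold), with an adjusted p of 0.404 in limma and 0.0389 with the replicate block. Fads1, the delta-5 desaturase of polyunsaturated fatty acids, showed the same kind of pattern. It was at 10.63, 10.61, 11.50, 11.55 and 11.41 in Rac2-/- arrays 1 to 5, against 10.20, 10.34, 11.14, 11.10 and 11.25 in WT arrays 1 to 5. Arrays 3 to 5 were higher than arrays 1 and 2 in both groups, by more than the genotypes differed, and the difference of 0.33 had an adjusted p of 0.897 in limma and 0.037 with the block. Without WT array 1 the difference in Fads1 was 0.18, in a fit with no batch term and with batches then unequal between the groups. Within batches Fads1 differed by 0.35 and 0.32, Fasn by 0.32 and 0.53, and Acaca by 0.60 and 0.81, in arrays 1 and 2 and in arrays 3 to 5.

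Acacb, the carboxylase whose malonyl-CoA restrains fatty acid oxidation, was not called. It was at 5.88, 5.88, 5.96, 5.82 and 5.79 in Rac2-/- arrays 1 to 5, against 5.89, 6.05, 5.96, 5.94 and 5.94 in WT arrays 1 to 5. The difference of -0.09 (95% interval -0.24 to 0.06) did not pass (adjusted p = 0.837 in limma), and Acacb was the only measured gene of the 34 that was higher in Rac2-/- in no same-numbered pair. The stearoyl-CoA desaturases, which make monounsaturated fatty acids, varied widely between arrays. Scd1 lay between 5.29 and 6.62 (median 5.87) in Rac2-/- and between 5.45 and 7.19 (median 6.04) in WT BMDMs, and its difference of -0.28 (-0.99 to 0.44) was the lowest of the 34. Scd2 was at 9.58 to 10.44 in Rac2-/- and 9.00 to 11.08 in WT BMDMs, with a difference of 0.06, and whether its probes also bind Scd1 was not tested. The elongases Elovl5 and Elovl6 differed by -0.04 and 0.08, the delta-6 desaturase Fads2 by 0.15 (-0.95 to 1.25), and the acetyl-CoA synthetase Acss2 by 0.11.

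Set side by side, the median difference was 0.25 for the regulators (5 of 7 genes higher in Rac2-/-), 0.28 for the sterol branch (16 of 17) and 0.09 for the fatty acid branch (7 of 10). The median size of a difference over all genes, whatever its sign, was 0.10. Within arrays 1 and 2 the 3 medians were 0.36, 0.40 and 0.06, and within arrays 3 to 5 they were 0.17, 0.24 and 0.14. The branches were not tested against each other, since genes of a pathway are not replicates. The fatty acid median changed sign without Rac2-/- array 5 (-0.011) and without WT array 1 (-0.023), and with S phase genes as a covariate (-0.0080). None of these fits had a batch term.

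The synthesis genes also followed the batches. In both groups, 15 of the 34 genes were higher and 18 lower in arrays 1 and 2 than in arrays 3 to 5, and Sqle alone shifted apart. The fatty acid level was -0.35, -0.26, 0.34, 0.26 and 0.38 in Rac2-/- arrays 1 to 5, against -0.54, -0.28, 0.03, -0.00 and 0.41 in WT arrays 1 to 5. All fatty acid genes but Acacb were lower in arrays 1 and 2 in both groups, and of the 17 sterol genes 7 were lower there, Mvd among them, and 9 higher. Array 1 was the highest Rac2-/- array for 14 of the 34 genes and array 5 for 11, and WT array 5 was the highest WT array for 17. In same-numbered pairs, 11 genes were higher in Rac2-/- in all 5, against 13.6% of all genes tested. These were Srebf2, Insig2, Mbtps1, Sec24d, Mvd, Fdps, Fdft1, Sqle, Acaca, Fasn and Fads1.

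Promoter sequence was available from RefSeq (GRCm38.p6) for 30 of the 36 genes, as windows of 250 bases before to 50 after a start site. SREBPs act on promoters together with NF-Y, which binds CCAAT. That motif (CCAAT, or ATTGG on the other strand) was present for 23 of the 30 genes (76.7%), against 41.1% of 27025 genes with a window. By branch it was found in 14 of 15 sterol genes, the exception being Acat2, in 5 of 8 regulators and in 4 of 7 fatty acid genes. A sterol element written TCACNCCAC (either strand) was present for 2 of the 30, Sec24d and Hmgcs1, and for 1.44% of all genes. GGGCGG, the core of an Sp1 site, was present for 23 of the 30 and for 38.2% of all genes. A match is only a run of letters, and none of these windows was measured for binding. The windows of both called genes, of Hmgcs1 as the sterol gene with both motifs and of Fasn from the fatty acid branch are given 5′ to 3′ on the strand of the gene, with matches to CCAAT or ATTGG and to TCACNCCAC in capitals.
Sec24d (chr3:123267246-123267545, plus strand): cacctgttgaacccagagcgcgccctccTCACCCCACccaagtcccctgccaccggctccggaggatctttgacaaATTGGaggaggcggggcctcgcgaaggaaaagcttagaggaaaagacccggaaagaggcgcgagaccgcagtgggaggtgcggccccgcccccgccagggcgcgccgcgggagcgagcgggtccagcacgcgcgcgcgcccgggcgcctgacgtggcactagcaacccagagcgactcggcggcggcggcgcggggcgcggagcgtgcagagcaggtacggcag
Mvd (chr8:122443373-122443672, minus strand): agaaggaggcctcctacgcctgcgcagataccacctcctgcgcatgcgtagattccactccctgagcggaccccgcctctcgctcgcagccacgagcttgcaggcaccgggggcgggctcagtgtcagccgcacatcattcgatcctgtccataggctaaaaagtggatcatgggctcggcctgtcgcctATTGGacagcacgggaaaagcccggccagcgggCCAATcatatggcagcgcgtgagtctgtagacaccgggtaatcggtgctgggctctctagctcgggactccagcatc
Hmgcs1 (chr13:119690101-119690400, plus strand): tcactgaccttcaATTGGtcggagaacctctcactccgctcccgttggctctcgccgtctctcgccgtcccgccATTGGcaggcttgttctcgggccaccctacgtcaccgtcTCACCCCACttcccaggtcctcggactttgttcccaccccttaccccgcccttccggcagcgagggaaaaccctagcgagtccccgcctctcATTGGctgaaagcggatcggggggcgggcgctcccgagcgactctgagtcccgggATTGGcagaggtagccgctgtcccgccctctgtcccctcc
Fasn (chr11:120824498-120824797, minus strand): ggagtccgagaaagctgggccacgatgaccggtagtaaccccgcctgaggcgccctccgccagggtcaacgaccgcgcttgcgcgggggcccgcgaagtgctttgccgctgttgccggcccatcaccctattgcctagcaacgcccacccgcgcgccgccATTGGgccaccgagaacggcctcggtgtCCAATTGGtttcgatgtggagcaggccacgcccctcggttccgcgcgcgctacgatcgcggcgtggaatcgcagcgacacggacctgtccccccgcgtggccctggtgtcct
Sec24d has a single match to each motif, Mvd has a match to CCAAT on each strand close to the start site, Hmgcs1 has 4 matches to ATTGG, and in Fasn a CCAAT and an ATTGG overlap.

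Genes around the pathways were read from a list of 48, of which 37 had a feature of their own. Of these, 22 had higher and 15 lower means in Rac2-/- BMDMs, with a median of 0.03, and 2 were called (5.41%, against 2.38% of all genes). Nr1h3 encodes LXR alpha, the oxysterol receptor that drives cholesterol export and Srebf1. It was at 9.05, 8.64, 8.77, 8.77 and 8.49 in Rac2-/- arrays 1 to 5, against 9.66, 10.05, 9.77, 9.80 and 10.19 in WT arrays 1 to 5. Every Rac2-/- array was lower than every WT array. Nr1h3 averaged 8.74 ± 0.21 in Rac2-/- and 9.89 ± 0.22 in WT BMDMs, a difference of -1.15 (SE 0.13, adjusted p = 0.0023 in limma and 0.0112 with the block), and it passed in all 10 fits that left out an array. The difference was -1.01 in arrays 1 and 2 and -1.24 in arrays 3 to 5.

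Targets of LXR did not share this direction as a group. The exporter Abcg1 lay at 9.92 to 11.15 in Rac2-/- and 11.35 to 11.78 in WT BMDMs, a difference of -0.68 with no overlap (adjusted p = 0.237 in limma). Rac2-/- array 5 was at 9.92 and the other Rac2-/- arrays at 10.97 to 11.15. Without array 5 of Rac2-/- the difference in Abcg1 was -0.45 (adjusted p = 0.0917 in limma, with no batch term). The exporter Abca1 was at 10.88 ± 0.36 in Rac2-/- and 10.48 ± 0.17 in WT BMDMs, a difference of 0.40 (adjusted p = 0.423 in limma). Srebf1 and Scd1, also targets of LXR, differed by -0.01 and -0.28. Apoe, Mylip and Lpcat3 differed by 0.03, -0.30 and 0.25, and passed neither with nor without the block. Lpcat3 was called with a batch term (adjusted p = 0.0448 in limma) and Abca1 with array weights, both higher in Rac2-/- BMDMs.

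Lpin1, a phosphatidate phosphatase of glycerolipid synthesis and an SREBP target, was the second gene called. It was at 8.11, 7.87, 8.06, 7.94 and 7.75 in Rac2-/- arrays 1 to 5, against 7.13, 7.45, 7.42, 7.20 and 7.71 in WT arrays 1 to 5. The groups did not overlap, by a narrow margin at array 5 of each. The difference in Lpin1 was 0.57 (SE 0.12), with an adjusted p of 0.0458 in limma and 0.057 with the block. Of the 10 fits that left out an array, Lpin1 passed in those without Rac2-/- array 5 (0.0470) or WT array 5 (0.0302). Without any of the other 8 arrays its adjusted p was 0.0808 to 0.127. With a batch term its adjusted p in limma was 0.0150, and within arrays 3 to 5 alone it was 0.127.

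Of the transport genes, Stard4 and Osbp were not called without the block and passed with it. Stard4, a cytosolic sterol carrier under SREBP control, was at 9.21, 8.30, 7.64, 7.70 and 8.31 in Rac2-/- arrays 1 to 5, against 7.75, 7.98, 7.10, 7.07 and 7.66 in WT arrays 1 to 5. Its difference of 0.72 had an adjusted p of 0.428 in limma and 0.0477 with the block. Osbp, which exchanges sterol between the endoplasmic reticulum and the Golgi, was at 9.55, 9.26, 9.81, 9.69 and 9.75 in Rac2-/- arrays 1 to 5, against 9.03, 9.18, 9.34, 9.37 and 9.34 in WT arrays 1 to 5. The difference of 0.36 had an adjusted p of 0.228 in limma and 0.0477 with the block. With a batch term the adjusted p in limma was 0.0098 for Osbp and 0.0575 for Stard4. As with Stard4, each Rac2-/- array was above the WT array of its number in Osbp. Acly, which supplies cytosolic acetyl-CoA to both branches, was at 9.47 ± 0.26 in Rac2-/- and 9.30 ± 0.29 in WT BMDMs, a difference of 0.17 (adjusted p = 0.938 in limma). Nr1h2, Soat1, Acsl1 and Acsl3 were not analysed here, as they have no feature of their own.

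**Figure D4:**
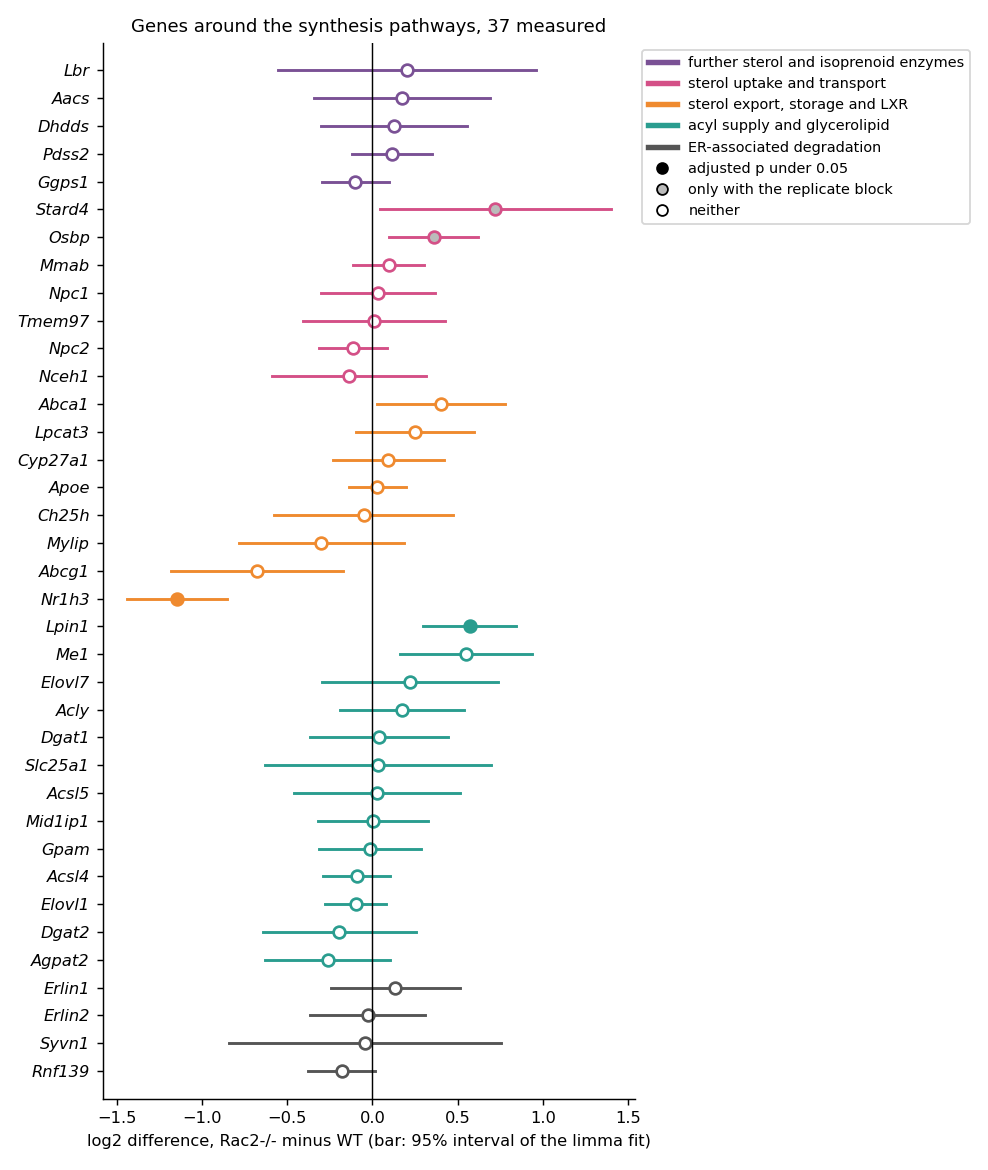
Log2 difference (Rac2-/- minus WT, horizontal axis) of the 37 measured genes around the synthesis pathways with its 95% interval from limma, grouped by role. Filled points passed an adjusted p of 0.05 and grey points passed only with the replicate block. Nr1h3 at -1.15 lies furthest from 0, and Lpin1, although filled, had an adjusted p of 0.057 with the block.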

How the data were processed

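The authors hybridized RNA of 10 BMDM cultures and processed the intensities with RMA, that is background correction, quantile normalization and a summary over the probes of a feature. The deposited values are log2 values of 34760 features, between 1.69 and 13.7, with array medians of 6.07 to 6.14. Their log base is not written with them and was taken from this range. Software versions are not given in the sources used here, and neither are the batches that the methods adjusted with ComBat. The deposited values still differed between arrays 1 and 2 and arrays 3 to 5. On arrays the number of arrays, not a read depth, limits precision.

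Features were named through the platform annotation, updated with RefSeq (21640 with a single symbol, 1321 with several, 11799 not listed). The methods retain 27031 features. The same number was kept here, ranked by the fourth-highest value (at least 4.73), and Rac2-/- was compared with WT in limma 3.58.1 (R 4.3.3) without block or batch. The fit was tested on simulated data. Residuals of 2 arrays with the same number correlated at 0.493 to 0.716, above 0.1 in all 5 pairs, and the numbers were used as a block. No label pairs the arrays. Within a batch, arrays of unlike number correlated to the same degree (0.476 to 0.724), and across batches the residuals were opposed (-0.716 to -0.515). The correlations thus do not separate pairing by number from the batches.

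The members and lists were chosen with earlier results of these data known. Given in full were Rac2, each synthesis gene past the threshold with or without the block, the 3 with the smallest p in each branch, and of the surrounding genes those past the threshold plus Acly and Abca1. Hmgcs1 and Abcg1 were added after their values were seen. Alternatives were the filter, the block, a batch term, each batch alone, renormalization, variance models, array weights, the methods' t-test, the mean of a gene's features and leaving out each array. Fits that left out arrays had no block or batch term, so the batches were then unequal between the groups. Marker covariates and leaving out Rac2-/- arrays 1 and 5 were chosen after seeing the data.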

Additional observations from a re-analysis of the deposited data

Results flagged for a closer look

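Sc5d, a late enzyme of cholesterol synthesis, had an outlying array among the Rac2-/- BMDMs. Rac2-/- array 1 was at 9.19 and the nearest other array at 8.71, and this gap was 0.829 of the range of the group, above the critical value of 0.71 for 5 arrays. It was the only gene and group flagged among 82 pairs of a gene and a group, where chance flags about 1 in 20. The pairs came from 41 genes, and most surrounding genes were not screened. Abcg1 and Mylip, for example, were not. Rac2-/- array 5 was at 9.92 in Abcg1 and 9.23 in Mylip, with the nearest other Rac2-/- array at 10.97 and 10.14.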

How the results depend on the processing

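Where 2 synthesis genes were called, 6 were with the replicate block and with a batch term, 5 with array weights, 4 within arrays 3 to 5, 1 after renewed quantile normalization, 0 within arrays 1 and 2 (limma, with 5 of 34 at an unadjusted p of 0.05, as 9.16% of all features were) and 1 to 3 when an array was left out. Mvd was called in all of these except within arrays 1 and 2. The 514 features called became 1716 with the block, 2524 with a batch term, 1811 with array weights, 1487 within arrays 3 to 5, 2 within arrays 1 and 2, and 245 to 625 without an array. The 2 surrounding genes called became 4 with a batch term or array weights, 0 within arrays 1 and 2 (5 of 37 at an unadjusted p of 0.05), 1 with no filter, a trended variance, the methods' t-test or without Rac2-/- arrays 1 and 5, and 1 to 2 without an array. Among the synthesis and surrounding genes, the block changed no call beyond those given in the report, and ComBat on the batches was not run.

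The regulators' median of 0.25 was 0.36 within arrays 1 and 2, 0.11 without Rac2-/- arrays 1 and 5, and 0.16 to 0.36 without an array. The sterol branch median of 0.28 was 0.034 without Rac2-/- arrays 1 and 5 and 0.14 to 0.34 without an array, and the fatty acid branch median of 0.09 was -0.0080 with S phase genes as a covariate and -0.023 to 0.25 without an array. Signs turned in genes that were not called. Srebf1 was at 0.013 within arrays 1 and 2, 0.0094 with median centring, 0.034 with array weights and 0.061 with the S phase covariate. Within arrays 3 to 5 Nsdhl was at -0.044, Scd2 at -0.022 and Elovl5 at 0.0061, and within arrays 1 and 2 Elovl6 was at -0.13 and Fads2 at -0.063. With the S phase covariate Nsdhl was at -0.028, Elovl6 at -0.22 and Fads2 at -0.33, and with array weights Nsdhl was at -0.038. Pmvk was at -0.012 after quantile normalization, -0.078 with the neutrophil covariate and -0.081 without Rac2-/- arrays 1 and 5, where Scap was at 0.033, Hsd17b7 at -0.059 and Elovl6 at -0.061. Without an array, the differences spanned 0 in Srebf1 (-0.056 to 0.051), Scap (-0.19 to 0.013), Insig2 (-0.0027 to 0.16), Mvk (-0.18 to 0.020), Pmvk (-0.23 to 0.23), Tm7sf2 (-0.078 to 0.29), Nsdhl (-0.050 to 0.24), Scd2 (-0.20 to 0.32), Elovl5 (-0.073 to 0.0096), Elovl6 (-0.13 to 0.26) and Fads2 (-0.18 to 0.41). The fits without an array had no batch term, and leaving out an array made the batches unequal between the groups. Pmvk, for example, differed by 0.0036 within arrays 1 and 2 and by 0.0027 within arrays 3 to 5. The cause of these changes was not tested.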
